A study of Homo sapiens with 24 samples.

Results

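The genome-wide landscape of 8-oxoguanine (OG) in HAP1 cells without the DNA glycosylase OGG1 was compared with that in WT cells at the scale of 100 kb and above. The members were 28114 windows of 100 kb, out of 28555 windows in which any bin was measured. They were formed from the 1 kb bins by position alone, and a window was kept when at least 50 of its bins were not zero in all 12 columns of the table. Just inside that minimum, 59 windows with 50 to 59 bins had medians of 1.10 to 1.29 in the 6 columns compared. Just outside it, 35 windows with 40 to 49 bins had medians of 0.942 to 1.10. These values are scaled OG signals: each column was divided by its mean over all bins, so that 1 is the genome average of that column. The windows were also viewed as 23 chromosomes and 41 chromosome arms, which were averaged over their bins in the same way.

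OG is a frequent oxidation product of guanine and can pair with adenine as well as with cytosine during replication. OGG1 excises OG that stands opposite cytosine and so starts base excision repair (BER), while MUTYH removes the adenine that a polymerase has placed opposite OG. Since the lesion can only arise where there is a guanine, the GC content of a stretch of DNA is the first property to set beside its OG level.

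OG-seq attaches biotin to OG in fragmented DNA, captures these fragments on streptavidin and sequences them next to the uncaptured input DNA. HAP1 is a near-haploid line derived from the leukemia line KBM-7, and the cells were grown in atmospheric oxygen without further treatment. The compared genotypes were WT and OGG1-/, in which Cas9 had cut exon 1 of OGG1, with 3 columns each. MUTYH-/ and MUTYH-/ X OGG1-/ (DKO) cells, with 3 columns each, entered only the estimate of the spread. By the labels, the 3 libraries of a genotype came from 2 clones, so that a pair of libraries shared a clone. The columns were not tied to clones here, and each was taken as 1 replicate, so the p-values measure the spread between columns, part of which is technical.

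A deposited value is the number of OG reads in a bin minus scaled input reads. OG reads could be recovered from the values and came to 59595212 to 86146575 per column in WT and 88177502 to 110869545 in OGG1-/. Input reads per column lay between 82585547 and 101596437 in these 6 columns. For the difference between the groups in a window, counting error alone gave a median SE of 0.0635, whereas the median SE from the spread of the columns was 0.125. A segment of chromosome 15, from about 61 to 89 Mb, is gained in HAP1. Its input was 2.09 to 2.11 times that of the rest of the chromosome in the WT columns and 2.06 to 2.11 times in the OGG1-/ columns, so all 6 columns carried this mark of the line.

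The genotype rests on a single Cas9 target site, which is shown here because it defines the group. It was found once on chromosome 3 of GRCh38, at chr3:9750308-9750330 on the minus strand, in exon 1 of the canonical OGG1 transcript, with the PAM in capitals.
OGG1 target site: gtacgatgccccatgcgcctGGG
In the 1 kb bin that holds this site, the deposited values were taken as they stand, as OG reads minus scaled input reads. They were 13, 14.6 and 18.9 in the OGG1-/ columns and 0.853, 14.3 and 10.6 in the WT columns. Column means, by which they were not divided, were 7.04 to 8.34 in WT and 8.84 to 9.71 in OGG1-/. In this bin the groups overlapped (exact two-sided permutation test on the unscaled values, p = 0.2), and WT column 1 was the low one. The edit itself is far shorter than a bin, so these values do not check it. The 100 kb window around the OGG1 promoter had scaled signals of 1.47, 2.16 and 1.68 in OGG1-/ and 1.78, 1.49 and 1.59 in WT, which also overlapped.

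Several stretches were without input reads in single columns, which sets the level that an OG signal could reach there. The main one lay in WWOX, a tumor suppressor gene that spans the common fragile site of 16q23. All 3 OGG1-/ columns lacked chr16:78506001-78589000, a stretch of 83 kb inside the gene that holds no exon of its canonical transcript. Input reads per bin over this stretch were 0.120, 0.108 and 0.0241 in OGG1-/ and 25.6, 22.1 and 22.8 in WT. The scaled OG signal was 0.00488, 0.00164 and 0.00287 in OGG1-/ against 0.692, 0.781 and 0.783 in WT. The groups were therefore apart in the input as in the OG signal, and 0.1 is the smallest p of the exact test with 3 columns a group.

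The gap was not the same in every OGG1-/ column. In columns 1 and 2 it ran from position 78506001 to 78711000, while column 3 lacked 78489001 to 78589000 and, in addition, 78961001 to 79040000. Columns 1 and 2 shared a second gap of 38 kb in DLG2 (chr11:85071001-85109000), where their input was 0.0789 and 0.0526 reads per bin and that of column 3 was 36.5. The gaps of column 3 in WWOX had the same edges in all 3 DKO columns. The supplementary data of the study give an OGG1-/ clone as the parent of the DKO clones. WT column 3 had a gap of its own in WWOX, of 26 kb (chr16:78724001-78750000). MUTYH-/ columns 1 and 2 had a gap in the gene from 78513001 to 78815000, and MUTYH-/ column 3 had one from 78403001 to 78520000. Gaps in WWOX were therefore not particular to OGG1-/. The OGG1-/ columns thus held at least 2 patterns of gaps, and columns 1 and 2 were alike in them.

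**Figure D1:**
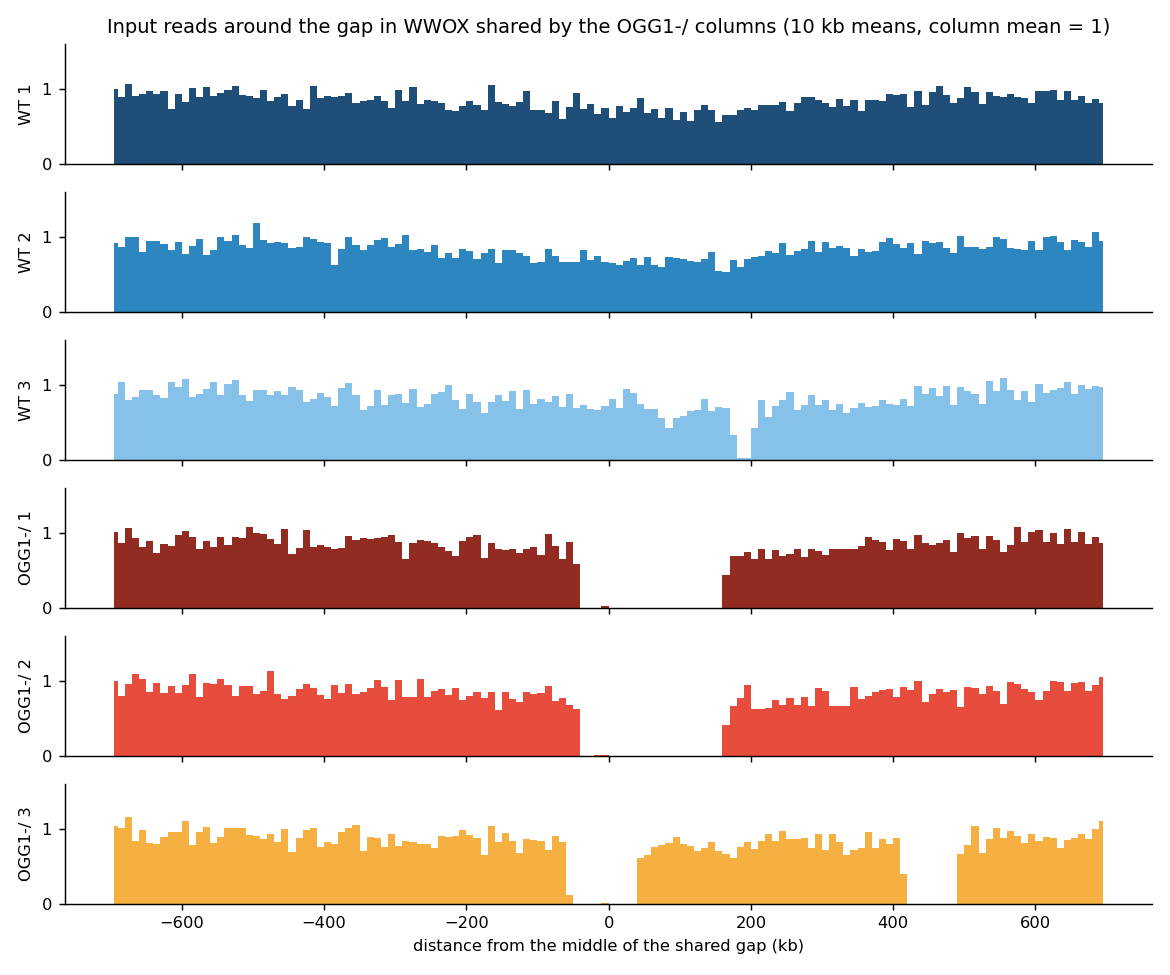
Input reads around the gap in WWOX in the 3 WT and 3 OGG1-/ columns, as 10 kb means divided by the mean of the column, against the distance in kb from the middle of the stretch that all OGG1-/ columns lack. Input falls to near 0 over the shared stretch in OGG1-/ columns 1 to 3 and runs further to the right in columns 1 and 2, while column 3 has a second gap and WT column 3 a narrow one.

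Across the windows, OG signal rose with GC content in both genotypes, and the rise was steeper in the 3 OGG1-/ columns than in the 3 WT columns. Per percentage point of GC, the scaled signal rose by 0.0595, 0.0812 and 0.0629 in OGG1-/ columns 1 to 3 and by 0.0579, 0.0518 and 0.0541 in the WT columns. The groups did not overlap, but OGG1-/ column 1 lay just above WT column 1 and column 2 stood well above the rest. The mean slopes were 0.0678 ± 0.0117 (SD, n = 3) and 0.0546 ± 0.00308, a difference of 0.0132 (exact two-sided permutation test, p = 0.1). Without OGG1-/ column 2, the difference was 0.00655. In the same way, the SD of the signal over windows was 0.372, 0.471 and 0.387 in OGG1-/ and 0.365, 0.346 and 0.346 in WT, a difference of 0.0578 (exact p = 0.1) that was 0.0275 without column 2. After each column was centred within 20 strata of window GC content, the difference in SD was 0.00606 and the columns overlapped (exact p = 0.4). On the log2 ratio of OG to input reads it was 0.0117, also with overlap (exact p = 0.6). For the GC slope of the scaled signal, the MUTYH-/ columns had 0.0798, 0.0443 and 0.0427. The DKO columns, which also lack OGG1, had 0.0333, 0.0721 and 0.0478. In both of these genotypes the columns lay on either side of the WT columns, so a steeper slope was not shared by all columns without OGG1.

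The difference changed sign between the deciles of windows with 40.4 and 41.8% GC. Each column was divided by its own mean, so a difference in slope has to change sign near the genome average. In the decile of windows with the least GC (34.6% on average), the OGG1-/ columns had signals of 0.637, 0.515 and 0.612 and the WT columns 0.649, 0.696 and 0.660. In the decile with the most GC (51.7%), they had 1.62, 1.86 and 1.65 against 1.61, 1.56 and 1.56. The OGG1-/ columns were thus all lower at the AT-rich end and all higher at the GC-rich end, with differences of -0.0801 and 0.138 (exact p = 0.1 for each). In the sixth decile, at 40.4% GC, the difference was -0.00636 and the columns overlapped. They also overlapped in the eighth decile, at 43.6% GC, where the difference was 0.0393.

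The 2 kinds of reads behind the signal behaved differently. OG reads alone had GC slopes of 0.0303, 0.0341 and 0.0249 in OGG1-/ and 0.0337, 0.0318 and 0.0288 in WT, which overlapped (difference -0.00165, exact p = 0.7). Input reads alone had slopes of 0.0205, 0.0157 and 0.0126 in OGG1-/ and 0.0219, 0.0225 and 0.0194 in WT (difference -0.00500, exact p = 0.2). The mean slope of the OG reads was thus not higher in OGG1-/, and the input of OGG1-/ columns 2 and 3 was flatter than that of every WT column. The log2 ratio of OG to input reads, which does not use the authors' factors, had slopes of 0.0134, 0.0249 and 0.0170 against 0.0160, 0.0124 and 0.0127, so the groups overlapped on this scale (exact p = 0.2). The order of the columns was not the same in the 3 measures. OGG1-/ column 2, with the steepest signal, had the steepest OG reads and the middle input slope of its group, while column 3 had the flattest input. The part of the input reads in the difference in GC slope was not tested.

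**Figure D2:**
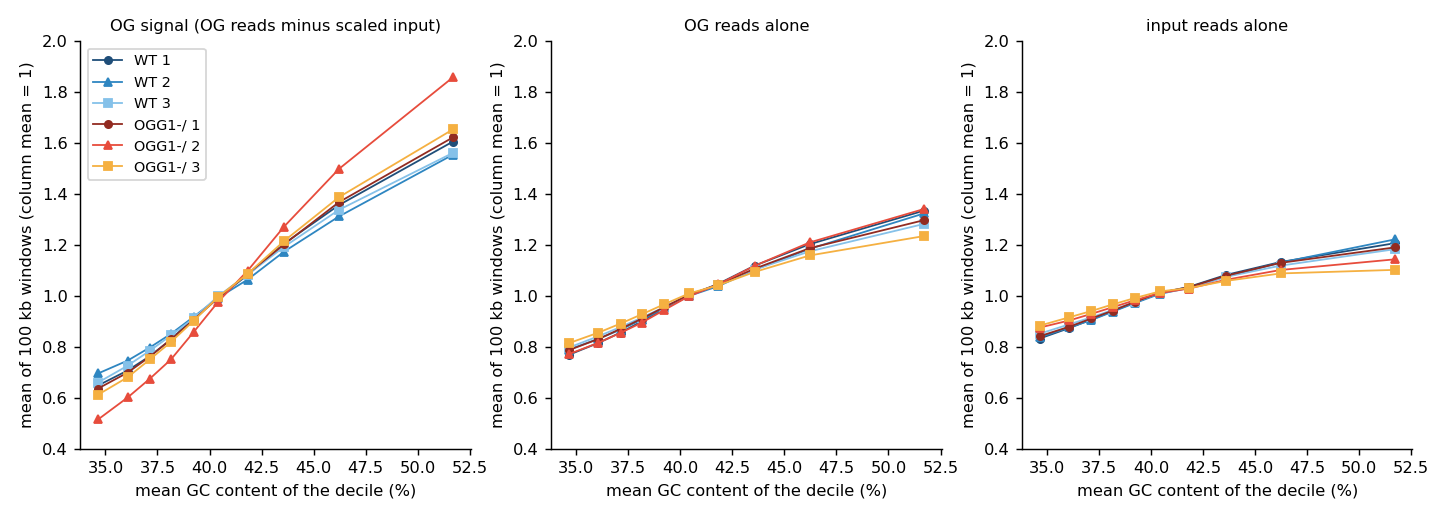
Mean of the 100 kb windows in each decile of GC content for the 3 WT and 3 OGG1-/ columns, as scaled OG signal (left), OG reads alone (middle) and input reads alone (right), each divided by the mean of its column. OGG1-/ columns are lower at the left end and higher at the right end of the first panel, led by column 2, while the OG reads of both groups overlap and the input of OGG1-/ columns 2 and 3 is the flattest.

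The chromosomes followed the same order. The highest differences between OGG1-/ and WT were on chromosomes 19, 22 and 17, the chromosomes with the most GC, and the lowest on 4, 13 and 18. On chromosome 19, with 48.4% GC, the OGG1-/ columns had signals of 1.38, 1.6 and 1.42 and the WT columns 1.42, 1.36 and 1.35. Column 2 alone was above all WT columns by a margin, and the difference of 0.0892 had a 95% interval from -0.132 to 0.310 (limma adjusted p = 0.722). Chromosome 22 gave 0.0866 and chromosome 17 gave 0.0719, both with overlapping columns and the same adjusted p of 0.722. Without OGG1-/ column 2, the difference of chromosome 19 was 0.0235.

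Chromosome 4, the chromosome with the least GC (38.2%), had signals of 0.848, 0.780 and 0.836 in OGG1-/ and 0.848, 0.870 and 0.849 in WT. Its difference was -0.0342 with a 95% interval from -0.111 to 0.0427 (limma adjusted p = 0.722). Without OGG1-/ column 2, it was -0.0136. Chromosome 13 followed with -0.0328 and chromosome 18 with -0.0210. Of the 23 chromosomes, 12 had a higher mean in OGG1-/ and 11 a lower one. None was called (0%), and none had an unadjusted p under 0.05 in the limma test. The columns of the groups did not overlap on 4 chromosomes with a higher signal in OGG1-/ (17.4%) and on 4 with a lower one (17.4%).

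Once each column was centred within 20 strata of window GC content, the differences of the chromosomes shrank from a range of -0.0342 to 0.0892 to a range of -0.0185 to 0.0193. The median size fell from 0.0175 to 0.00333. Chromosome 19 then stood at -0.00871, and chromosome 4 at 0.00237, so that both changed sign. The ends of the new range were chromosome 1, at -0.0185, and chromosome 15, at 0.0193. As a description over 23 chromosomes, which share the same columns, the difference and GC content had a Pearson r of 0.979.

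**Figure D3:**
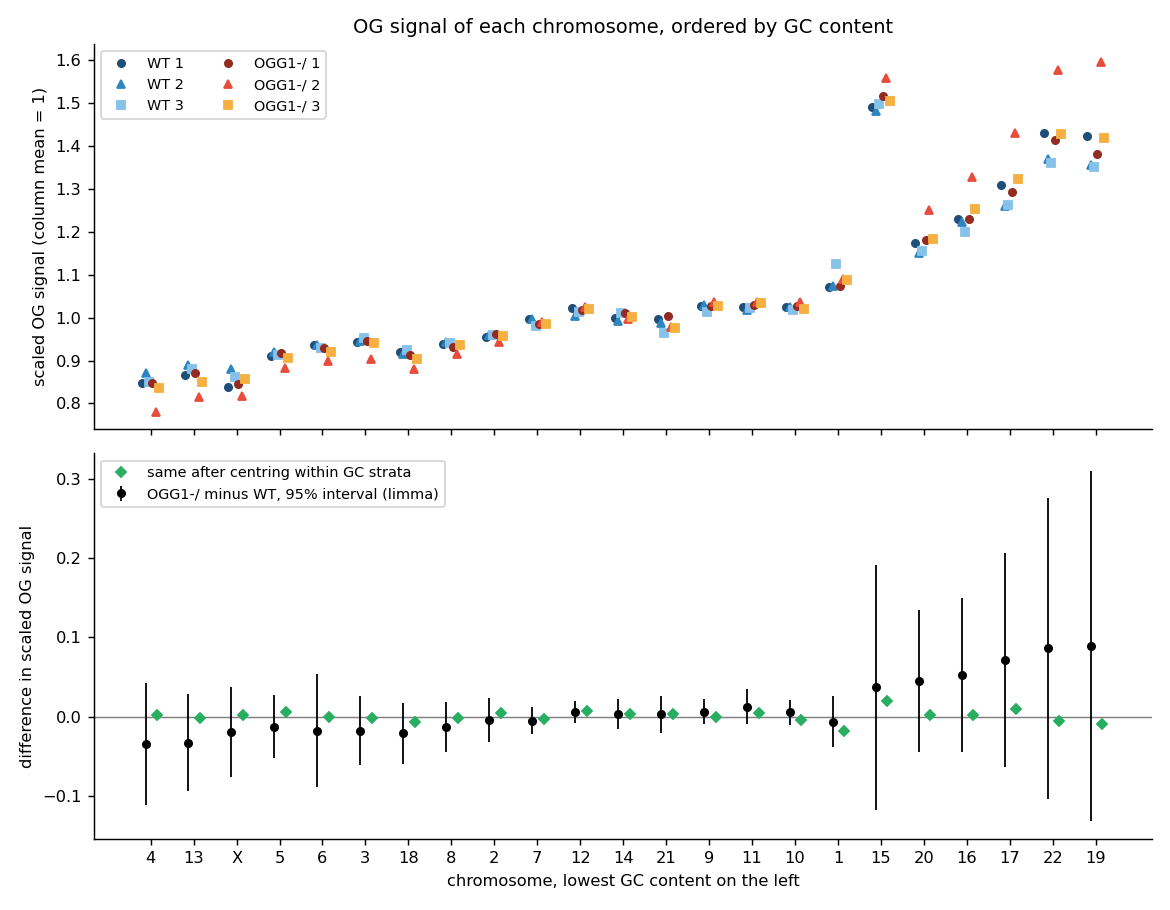
Scaled OG signal of the 23 chromosomes in the 3 WT and 3 OGG1-/ columns (top) and the OGG1-/ minus WT difference with its 95% interval from limma (bottom, black) beside the difference after centring within GC strata (green), with chromosomes in order of GC content. The black points rise from -0.0342 on chromosome 4 to 0.0892 on chromosome 19, every interval includes 0, and the green points lie between -0.0185 and 0.0193.

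Among the 41 arms, none was called (0%; none had an unadjusted p under 0.05 in the limma test). Non-overlapping columns with OGG1-/ higher were found on 7 arms (17.1%) and lower on 5 (12.2%). The 4 arms with the highest differences were 19p (0.109), 22q (0.0885), 19q (0.0740) and 17p (0.0719). All 8 arms with more than 43% GC had a higher mean in OGG1-/, and all 11 with less than 40% had a lower one. The columns overlapped on each of the 8, and among the 11 only the 5 lower arms counted above were without overlap. Without OGG1-/ column 2, the difference of 19p was 0.0304. The arms share the same columns, so these counts are descriptions and not separate tests. At the low end stood 4q (-0.0459), 1q (-0.0444), 6q (-0.0377) and 13q (-0.0326).

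The arm 1q did not belong with the others. Its GC content of 40.9% is near the middle, and centring within GC strata left its difference at -0.0457, whereas 4q went to 0.000688. The OGG1-/ columns had 1.02, 1.01 and 1.04 on 1q, and the WT columns 1.02, 1.04 and 1.15, so WT column 3 was the high one. Its input was also high there, at 1.12, against 1.00 in both other WT columns and 0.999 to 1.00 in OGG1-/. Without WT column 3, the difference of 1q was -0.00492, and without WT column 1 it was -0.0679, so it rested on this column, and the input reads of the column moved with it.

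At the level of single windows, differences between the genotypes were of the size of the spread between columns. No window was called at an adjusted p under 0.05 by limma (0% of 28114), and the smallest adjusted p was 0.359. At an unadjusted p under 0.05 there were 516 windows with a higher signal in OGG1-/ (1.84%) and 773 with a lower one (2.75%). Together they made 4.58% of the windows. The 3 OGG1-/ columns lay above all WT columns in 1567 windows (5.57%) and below them in 1857 (6.61%). The differences had an SD of 0.138 over windows, and 1% of them lay under -0.298 and 1% over 0.360.

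The windows in which the columns did not overlap differed in GC content by direction. Those with a higher signal in OGG1-/ had a median GC content of 44.6%, those with a lower one 37.4%, and all windows 39.8%. In the decile of windows with the least GC, OGG1-/ was lower without overlap in 13.5% of windows and higher in 0.782%. In the decile with the most GC, the shares were 0.391% and 16%. After centring within GC strata, the shares over all windows were nearly even, with 1458 windows higher (5.19%) and 1470 lower (5.23%). The GC strata held 23.4% of the variance of the difference over windows.

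Neighboring windows shared their difference only in part. Between windows 100 kb apart, the differences correlated with r = 0.237 over 27977 pairs, and at 1000 kb the value was 0.156. After centring within GC strata, r was 0.0443 for adjacent windows and 0.0132 at 1000 kb. These are descriptions over windows of the same columns. In 2816 windows of 1 Mb, 18 had an unadjusted p under 0.05 with OGG1-/ higher and 60 with OGG1-/ lower, and none was called by limma (smallest adjusted p 0.850).

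**Figure D4:**
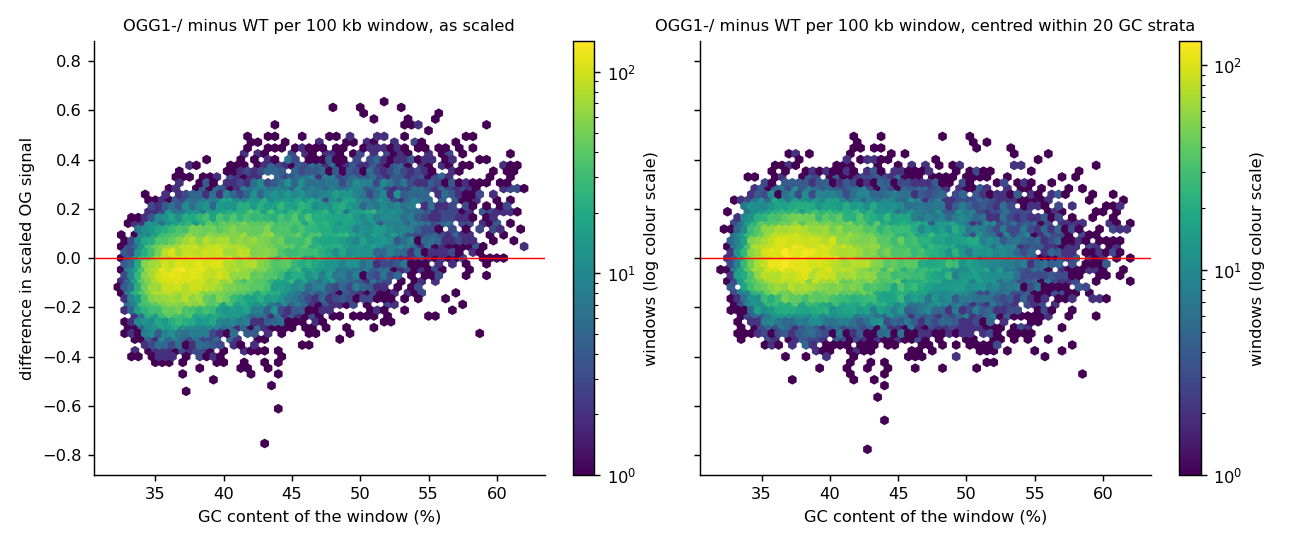
Difference in scaled OG signal between the OGG1-/ and WT columns for the 100 kb windows against their GC content in percent, as scaled (left) and after centring each column within 20 GC strata (right), with color for the number of windows on a log scale and 19 windows outside the axes of each panel. The cloud on the left tilts upward with GC and that on the right is level.

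Gene-dense windows had more GC and followed it. Windows with 3 or more starts of protein-coding genes (2086 windows, 47.1% GC) had signals of 1.40, 1.56 and 1.43 in OGG1-/ and 1.42, 1.35 and 1.36 in WT, a difference of 0.0851. Windows without a start (17517, 39.3% GC) had a difference of -0.0215. The columns overlapped in both classes (exact p = 0.2 for each). Centred within GC strata, the differences were 0.00563 and -0.000234.

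The windows named here were chosen by the smallest unadjusted p among those with non-overlapping columns, 8 in each direction, and none of them was called. The window with the smallest p among the higher ones lay inside CREB5, a gene for a transcription factor of the CREB family (chr7:28500001-28600000). Its signals were 1.6, 1.12 and 1.5 in OGG1-/ and 0.997, 0.689 and 1.01 in WT, and OGG1-/ column 2 was the lowest of its group. The difference of 0.504 ± 0.138 (SE) had an unadjusted p of 0.000417 and an adjusted p of 0.986 in the limma test. It was 0.499 after GC centring, and the input of the window was 0.967 to 1.06 in all 6 columns.

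A window that overlaps UPF2, whose protein acts in nonsense-mediated mRNA decay, held the most even columns (chr10:11900001-12000000). OGG1-/ had 1.6, 1.53 and 1.5 there, and WT had 1.09, 1.09 and 0.997, a difference of 0.484 (limma adjusted p = 0.986). On chromosome 22, a window with the starts of RSPH14, RAB36 and BCR, the breakpoint gene of the Philadelphia chromosome, had 1.91, 2.16 and 1.68 in OGG1-/ and 1.26, 1.19 and 1.57 in WT. This was the largest difference of the 8 (0.574), and WT column 3 came close to OGG1-/ column 3. The window with PCBD2 and CATSPER3, a subunit of the sperm calcium channel, had 1.47, 1.62 and 1.41 against 1.03, 1.00 and 1.10.

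The other 4 higher windows had differences of 0.407 to 0.482. They held the starts of MAGEA4, a cancer-testis antigen, and GABRE, a subunit of the GABA-A receptor, on chromosome X, those of LDLRAD1, TMEM59 and TCEANC2 on chromosome 1, that of CCZ1B on chromosome 7, and on chromosome 10 no protein-coding gene. CCZ1B has a near-identical copy on the same chromosome, so its reads may have been shared between copies. The GC content of the 8 windows was 41.6 to 53.6%, above the median of all windows. After GC centring their differences were 0.332 to 0.499.

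Of the lower windows, the one with the smallest p was the WWOX window described above (chr16:78500001-78600000). The OGG1-/ columns had 0.0704, 0.0471 and 0.0439 and the WT columns 0.637, 0.903 and 0.857, a difference of -0.745 ± 0.164 (SE). Its unadjusted p was 1.67e-05 and its adjusted p 0.359 in limma. The input of the window was 0.0417, 0.0393 and 0.0884 in OGG1-/ and 0.751, 0.701 and 0.762 in WT. The log2 ratio of OG to input reads, taken over the few reads left, differed by 0.00572. In this window the DNA itself was almost absent from the input, and so was the OG signal. It was called in the alternatives that fitted only the 6 columns compared (adjusted p = 1.72e-06), set values below 0 to 0 (0.000720), used OG reads alone (0.0415) or used input reads alone (0.0104), and over all alternatives its adjusted p ranged from 1.72e-06 to 1.00.

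The next lower window lay on the X chromosome and held no protein-coding gene (chrX:28300001-28400000). It had 0.586, 0.438 and 0.748 in OGG1-/ and 0.953, 1.14 and 1.08 in WT, with a difference of -0.466. Its input went the other way, with 0.987 to 1.02 in OGG1-/ and 0.871 to 0.940 in WT. The window with the start of ATP9B, which encodes a phospholipid flippase, had 0.606, 0.978 and 0.611 in OGG1-/ against 1.11, 1.25 and 1.20 in WT. With 44% GC, it lay above the median GC of all windows although it was lower in OGG1-/, and GC centring made its difference larger, from -0.457 to -0.504.

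In the window with the start of DCHS2, a gene of the cadherin family, the OGG1-/ columns were the closest together of all lower windows outside WWOX, at 0.674, 0.704 and 0.685, against 1.16, 0.962 and 1.22 in WT. The window with the start of SULF1, an enzyme that removes sulfate from heparan sulfate, had 0.831, 0.799 and 0.449 against 1.23, 1.03 and 1.12, with OGG1-/ column 3 as the low one. The last 3, a window on chromosome 2 and a pair on chromosome 14, held no protein-coding gene and had differences of -0.429, -0.418 and -0.409. Of the 8 lower windows, 5 had a GC content between 35.6 and 38.3%. The WWOX window aside, the input was on average higher in OGG1-/ in the 7 lower windows and lower in the 8 higher ones, and the OG reads alone kept the direction of all 16. The windows were chosen on OG reads minus scaled input, so the choice itself favors both of these patterns.

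**Figure D5:**
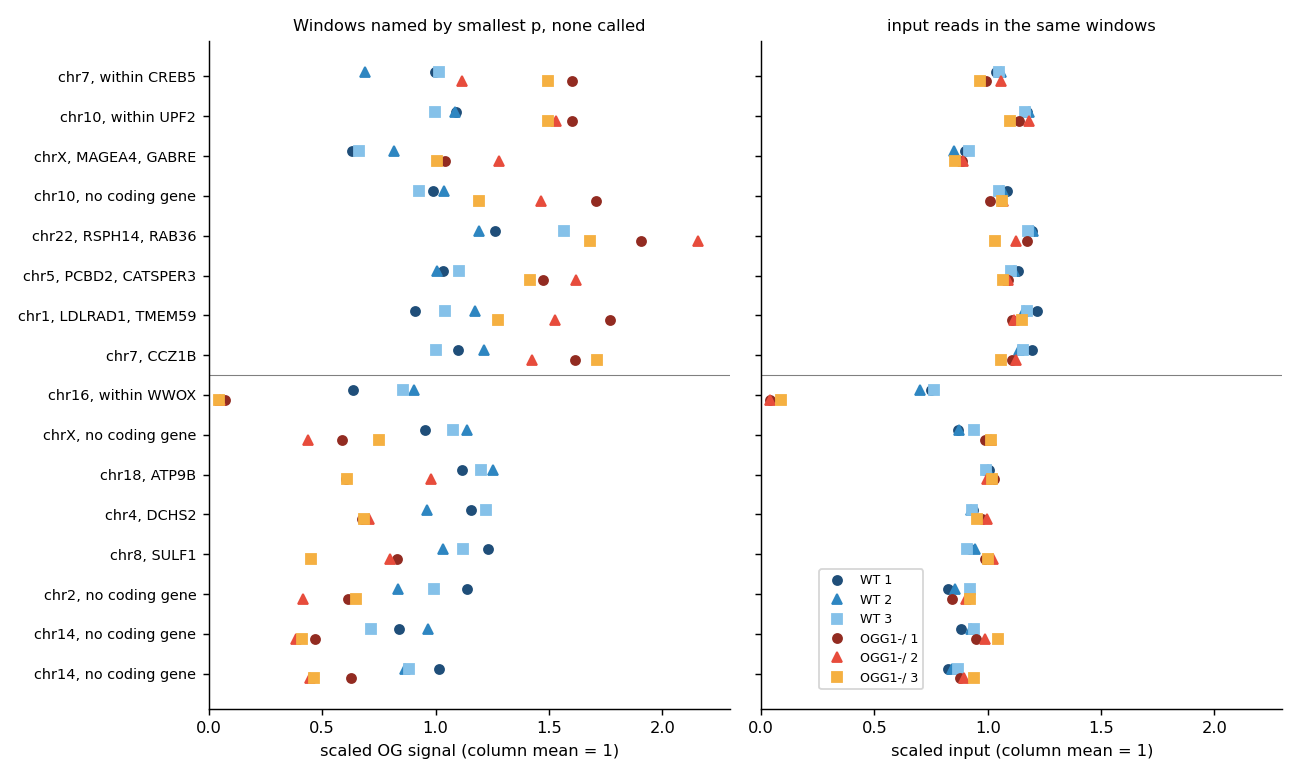
Scaled OG signal (left) and scaled input (right) of the 16 named windows in the 3 WT and 3 OGG1-/ columns, with the 8 higher windows above the line and the 8 lower ones below it. The groups do not overlap in any row on the left, by choice of the windows, while on the right only the WWOX window stands far from the others, with OGG1-/ near 0.

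The largest differences in absolute size were in repeated DNA and were picked out after their values had been seen. The window with the array of 5S ribosomal RNA genes on chromosome 1 (chr1:228600001-228700000) had signals of 3.94, 3.26 and 4.69 in OGG1-/ and 5.43, 6.27 and 4.69 in WT. Its difference was -1.5 (limma adjusted p = 0.986), and OGG1-/ column 3 was level with WT column 3.

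Over the 37 bins of the array, the scaled OG signal was 7.74, 6.09 and 9.31 in OGG1-/ and 10.8, 13.2 and 8.91 in WT (exact p = 0.2). The scaled input was 2.59, 2.15 and 1.85 in OGG1-/ and 4.07, 4.59 and 4.34 in WT, without overlap (exact p = 0.1). The input of the whole window was lower in OGG1-/ by limma on input reads alone (difference -0.943, adjusted p = 9.01e-05). The MUTYH-/ columns, with 1.90, 1.68 and 1.67 over the array, and the DKO columns, with 2.31, 1.48 and 1.93, were also below WT in input, so WT stood apart from the 3 other genotypes. The copies are near-identical, so mapped reads may have been spread over them, and the number of copies in each genotype cannot be told apart from the mapping. A window near the centromere of chromosome 16 (chr16:33300001-33400000) had 1.82, 1.35 and 2.45 in OGG1-/ and 0.861, 1.74 and 0.439 in WT. Its difference of 0.855 (limma adjusted p = 0.359) came with columns that overlapped and with an even input of 0.471 to 0.520.

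The genes that remove or avoid OG were looked up by the window of their start. Of the 10 genes for repair of oxidised guanine, none lay in a window called by limma, and 1 window had an unadjusted p under 0.05, against 4.58% of all windows. That was the window of MUTYH, with 1.30, 1.63 and 1.83 in OGG1-/ and 1.04, 1.39 and 1.18 in WT. The window of NTHL1, a glycosylase for oxidised pyrimidines, was higher without overlap, as were 5.57% of all windows (2.10, 2.36 and 2.20 against 2.01, 1.97 and 1.82), and that of NEIL3, a glycosylase of the NEIL family, was lower, as were 6.61% of all windows (0.843, 0.774 and 0.829 against 1.01, 0.918 and 0.854). The median difference of the list was 0.138 at a median GC content of 46.9%. It was 0.0344 after GC centring, beside -0.00719 and -0.000207 for all windows.

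The second list, of 16 genes, held genes of later BER steps and the glycosylases UNG, SMUG1, MBD4, TDG and MPG, which act at its start. The list had a median difference of 0.0227 and no window with an unadjusted p under 0.05 in limma. POLB, the polymerase that fills the gap, and FEN1, the flap endonuclease, lay in windows that were higher in OGG1-/ without overlap. UNG, the uracil glycosylase, lay in one that was lower, with 1.11, 1.24 and 1.16 against 1.45, 1.46 and 1.26. These were 2 higher and 1 lower of 16, against 5.57% and 6.61% of all windows, and are no result about the list. Of the 20 genes of the antioxidant response, 17 lay in windows with a higher mean in OGG1-/, against 47.8% of all windows, and 4 were higher without overlap, against 5.57%. The median GC content of the list was above that of all windows, and nothing particular to these genes is read from the counts. These were GCLM, SRXN1, SOD2 and PRDX1, which act in glutathione synthesis, peroxiredoxin repair, superoxide removal and peroxide removal. PRDX1 had 2.09, 1.81 and 1.64 in OGG1-/ and 1.63, 1.55 and 1.11 in WT. Its window and those of SRXN1 and GCLM had an unadjusted p under 0.05 in limma (0.0223, 0.0198 and 0.0465). These were 3 of 20, against 4.58% of all windows. None of the 20 was called (limma adjusted p = 0.986 for the 3). The median difference of this list was 0.108 at 44.9% GC and 0.0252 after GC centring.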

How the data were processed

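OG-seq and input libraries of HAP1 cells were mapped to GRCh38 with Bowtie2 (version 2.3.5.1) by the authors, who counted reads in bins of 1 kb with bedtools and removed blacklisted bins. The deposited values are a score per bin: OG reads minus input reads scaled by signal extraction scaling. They are not counts and reach below 0, so no count test was used. Whole OG and input reads could be recovered for 99.9988% of bins or more, depending on the column.

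Each column was divided by its mean over all bins. Windows, arms and chromosomes were averaged over bins and compared with limma 3.58.1 (R 4.3.3, eBayes with a trend), fitted to all 12 columns on the linear scale, with Benjamini-Hochberg adjustment over all units of a kind. Values of which each column has only 1 went into an exact permutation test. The calls were tested on simulated data. GC content, genes and sequences came from GRCh38 and GENCODE v44. Arms were divided at approximate centromere positions, and arms with fewer than 1000 bins were left out. Gaps were runs of at least 10 bins with 3 or fewer input reads where the third-highest column had at least 12, joined where they lay within 3 kb. Gains were adjacent windows with input over 1.5 times the median column.

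Named windows were the 8 with the smallest p in each direction among those with non-overlapping columns, at most 1 per 2 Mb. Named chromosomes were the 3 highest and 3 lowest, and named arms the 4 highest and 4 lowest. The members and lists were chosen with earlier results of these data known. Columns with the same number did not deviate together (r = -0.0848, -0.0498 and 0.0152), so the numbers were not used as pairs. Columns of unlike number had r of -0.0642 to 0.121, and whether columns shared a batch was not tested. Scripts ran under Python 3.11.15, using matplotlib 3.10.9, scipy 1.17.1, pandas 2.3.3 and numpy 2.4.6. Expression and mass spectrometry data of the study were not analysed here.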

Additional observations from a re-analysis of the deposited data

Results flagged for a closer look

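The input reads, which enter the OG signal only through subtraction, rose above the level of WT over 2 stretches of adjacent windows in OGG1-/ columns. On chromosome 10 (chr10:89800001-90400000, 6 windows without the start of a protein-coding gene), the scaled input was 1.79 in OGG1-/ column 1 and 1.81 in column 2, against 0.936 in column 3. The WT columns had 1.21, 1.20 and 0.941 there. The scaled OG signal was 1.46, 1.30 and 0.874 in OGG1-/ and 0.985, 1.06 and 0.788 in WT, so it was high in the columns with high input. On chromosome 8 (chr8:140200001-140600000, 4 windows with the starts of TRAPPC9 and CHRAC1), the scaled input was 2.23 in OGG1-/ column 3, while columns 1 and 2 had 1.18 and 1.15 and WT had 1.32, 1.32 and 1.18. The 3 DKO columns had 2.20, 2.12 and 2.14. The scaled OG signal of OGG1-/ column 3 was 2.73 there, against 1.40 and 1.51 in columns 1 and 2. The columns that shared the gain on chromosome 10 were those that shared the gap in DLG2.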

How the results depend on the processing

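No window, arm or chromosome was called under most settings. Fitting only the 6 columns compared called 1 window higher (chr16:33300001-33400000) and 1 lower (WWOX), setting values below 0 to 0 called 1 lower (WWOX), and no minimum of bins called 1 higher. OG reads alone called 2 lower (WWOX and the 5S array). Input reads alone called 1 higher and 4 lower, the WWOX and 5S windows among the latter. Leaving out a column called 0 to 1 windows higher, and the call came without OGG1-/ column 2 or without WT column 2 (chr16:33300001-33400000). Without scaling, 1 window was called higher, 38 arms and 22 chromosomes were called, and the columns then differ in OG reads. No window, arm or chromosome was called with the column number as a replicate block (0 of each), with or without GC centring. The deviations of the columns gave no sign that the numbers pair them.

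The difference in GC slope was reversed with OG reads alone (-0.00165) and with input reads alone (-0.00500), and leaving out a column gave 0.00655 to 0.0174. With values below 0 set to 0, it was 0.00831 and the columns overlapped (exact p = 0.3). The difference in the SD over windows was 0.0349 with values below 0 set to 0 (exact p = 0.3). It was reversed with OG reads alone (-0.00668), input reads alone (-0.0139) and the log2 ratio centred within GC strata (-0.00952), a setting chosen after seeing the data, and leaving out a column gave 0.0275 to 0.0766. The WWOX window was reversed with the log2 ratio (0.00572).

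Apart from the WWOX window with the log2 ratio, and from input reads alone, the named windows kept their direction in every setting run, all 16 of them except with a minimum of 90 bins, which left 15 (without ATP9B). The named windows were chosen for columns that did not overlap, so leaving out a column could not reverse them. Their kept direction is therefore no independent check. With input reads alone, WWOX kept its direction. The differences of the higher windows were -0.0417 (CREB5), -0.0321 (UPF2), -0.0120 (MAGEA4), -0.0213 (chromosome 10, no gene), -0.0822 (BCR), -0.0367 (PCBD2), -0.0577 (TMEM59) and -0.0654 (CCZ1B). Those of the lower windows outside WWOX were 0.110 (chromosome X), 0.0137 (ATP9B), 0.0458 (DCHS2), 0.0787 (SULF1), 0.0218 (chromosome 2), 0.0775 and 0.0578 (chromosome 14). The windows were chosen on a signal from which input is subtracted, so these directions are not independent of the choice. The cause was not tested. At this depth, counting error gave a median SD of 0.0724 to 0.0821 per window and column.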

Other observations

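The DKO columns entered the fit but not the comparison. In the WWOX stretch of 83 kb that the OGG1-/ columns lacked, the input of the DKO columns was 0.0723, 0.0602 and 0.169 reads per bin, and the scaled OG signal was 0.288, -0.00185 and 0.00321. In the further WWOX gap of 79 kb that OGG1-/ column 3 shared with them, their input was 0.0380, 0.0253 and 0.152 reads per bin, and the scaled OG signal was 0.326, 0.00157 and 0.0118. The OG reads of DKO column 1 thus held signal where its own input had almost none. In the OGG1-/ columns, the signal over their own gaps in WWOX and DLG2 lay between 0.000636 and 0.0340. DKO column 1 also had the lowest OG signal over the 5S array, 1.05 against 4.52 to 13.2 in the other DKO, OGG1-/ and WT columns. In the MUTYH-/ columns, columns 1 and 2 had 1.90 and 1.67 input reads per bin over the WWOX stretch and column 3 had 21.5.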
